A study of Saccharomyces cerevisiae with 2 samples.

Results

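The tricarboxylic acid (TCA) cycle, the glyoxylate cycle, gluconeogenesis and their feeder reactions were examined in budding yeast through 32 genes, each chosen by name from the gene spots of the array. All 32 were found, in 53 of 10263 gene spots, with 21 genes in 2 spots and 11 in 1 spot, among 6256 genes in all. RNA of a wild-type strain was set against RNA of a YDR374C deletion strain on 2 two-colour arrays. Both strains share the haploid background BY4741, which lacks LEU2, URA3 and MET17 among other genes, and both were grown in SD (synthetic defined) medium to mid-exponential phase at an OD600 of 0.7. On each array 0.2 ug of total RNA per strain was labelled, wild type with Cy3 (green) and deletion with Cy5 (red); the dyes were never swapped. Nothing in the labels tells whether the arrays hold separate cultures, so the p-values below measure only a spread between 2 arrays, which may be technical. That spread, and so each SE and p, is drawn mostly from all genes together (limma, prior df 13.2). An SE below therefore says little about how far the arrays differ in its gene, which the values of the 2 arrays show.

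In the TCA cycle, acetyl groups are joined to oxaloacetate to give citrate, which is oxidised back to oxaloacetate in the mitochondrion with a gain of reduced cofactors for the respiratory chain. The glyoxylate cycle bypasses the steps that release carbon dioxide, so that yeast can build sugar from acetate or ethanol, and gluconeogenesis then turns oxaloacetate into hexose phosphate. Glucose keeps many of these genes repressed by holding the kinase Snf1 inactive, which leaves the repressor Mig1 at work, while the Hap2/3/4/5 complex, Cat8, Sip4 and the Rtg factors activate them. In glucose medium the cycle serves largely to supply precursors such as 2-oxoglutarate for amino acid synthesis.

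The median gene spot read between 1597 and 3105 across the channels of both arrays, over a local background of 36 to 42. Of 106 readings of the members' spots (53 spots on 2 arrays) none was saturated and 11, in 9 genes, carried an outlier flag of the scanner software and were left out. The log2 ratio, red over green, was tested in 5641 genes. Between the arrays it differed with an SD of 0.09 over the tested members and 0.08 over all genes. The gene named as deleted, PHO92 (YDR374C), did not vanish from the red channel: in its brighter spot the processed signal of array 1 was 271 in wild type against 223 in the red channel, and that of array 2 was 247 against 238. The log2 ratios of that spot were -0.24 and -0.04; its other spot lay at background on both arrays. The red channel is therefore called the library labelled deletion, and all directions rest on that label. Of 6 MATa markers of BY4741 2 were higher and 3 lower, with log2 ratios from -0.62 (STE6) to 0.34 (AGA2), and of 4 MATalpha markers 2 were lower. Both strains share this background, so mating-type markers could not tell which channel holds the deletion.

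Of the 32 genes 30 could be tested, and they moved in both directions. In the library labelled deletion 12 were higher and 10 lower at an adjusted p of 0.05 (limma's moderated test, Benjamini-Hochberg over all genes), and 8 did not pass. Among all tested genes 73.1% passed this test, 36.4% higher and 36.7% lower, and the members' share of 73.3% lies next to that background, so the count is not a result about these genes. The median log2 ratio was 0.02 over the members and -0.00 over all genes, and the median absolute log2 ratio was 0.20 against 0.17. An absolute log2 ratio of at least 0.5 with a passed test was reached by 4 members, 3 higher (LSC2, IDH1 and MDH1) and 1 lower (LPD1), where 8.01% of all genes reached it, 4.13% higher and 3.88% lower. In 25 of 30 members (83.3%) both arrays had 1 sign, against 89.6% of all genes. Because the dyes were not swapped, a fixed dye effect of a probe counts as a difference in this test, and a ratio in bulk RNA cannot tell fewer cells with a transcript from less of it per cell.

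**Figure D1:**
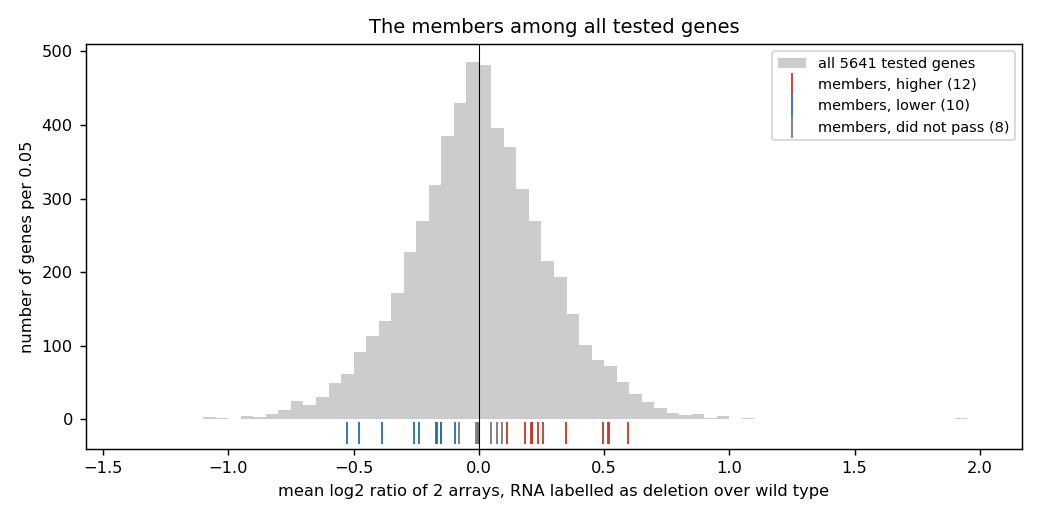
Histogram of the mean log2 ratio (library labelled deletion over wild type, x axis) of all 5641 tested genes, in bins of 0.05, with the 30 tested members as ticks below it. The members run from -0.53 to 0.60, on both sides of 0 and within the range of all genes, which is -1.31 to 1.94.

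The first steps of the cycle showed no shared direction. CIT1, the citrate synthase of the mitochondrion, read 0.01 on array 1 and 0.18 on array 2 (log2 ratio) and did not pass (mean 0.09 ± 0.04, SE, n = 2; limma adjusted p = 0.0582). CIT2, the peroxisomal citrate synthase of the glyoxylate cycle and a classic target of Rtg1 and Rtg3, had -0.05 and 0.04, so its sign differed between the arrays, and it did not pass (mean -0.00 ± 0.04). Its processed signals were 6949 (wild type) and 6716 on array 1 and 6072 and 6319 on array 2. After median centring of the arrays in place of loess, CIT2 read 0.19 and passed the test (limma adjusted p = 0.000866).

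CIT3, the minor mitochondrial isoenzyme that also makes methylcitrate, was higher by 0.26 ± 0.03 (SE, n = 2; limma adjusted p = 8.72e-06), with 0.27 on array 1 and 0.25 on array 2. Its signals were low, at 84.3 and 109 on array 1 and 138 and 173 on array 2, wild type first. Its 2 spots on array 2 differed by 0.30 on the log2 scale, which is more than the mean ratio. The probe of URA3, a gene that BY4741 lacks, was also called higher, by 0.33 ± 0.04 (limma adjusted p = 2.09e-06). Its signals were 86.0 to 182 in the green and 135 to 235 in the red channel. The probes of LEU2 and MET17, which BY4741 also lacks, were dimmer, with mean signals of at most 48.8. They were not well above background and were not tested, so the URA3 range is not that of every absent gene. What part a signal as low as that of URA3 has in the call of CIT3 was not tested.

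ACO1, the aconitase that isomerises citrate, was lower, with -0.21 on array 1 and -0.27 on array 2 (mean -0.24 ± 0.04, SE, n = 2; limma adjusted p = 2.18e-05). Each array rests on 1 spot, since the other spot was flagged on either array. With the flagged spots kept the mean was -0.25, against the -0.24 without them.

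Isocitrate dehydrogenase, the NAD-dependent enzyme that releases the first carbon dioxide of the cycle, stood among the higher genes. IDH1, its regulatory subunit, read 188 (wild type) and 284 on array 1 and 105 and 181 on array 2. Its log2 ratios were 0.47 and 0.57, which gave a mean of 0.52 ± 0.04 (1.43-fold; SE, n = 2; limma adjusted p = 1.26e-08). These signals overlap the low range of the URA3 probe, and its part in the call was not tested. IDH2, the catalytic subunit, was not tested because both of its spots were flagged as outliers on array 2. Its spots were bright, with mean signals of 3970 and 5496 on array 1 and 5505 and 7746 on array 2. All 4 readings were above 0, with log2 ratios of 0.43 and 0.50 on array 1 and 0.41 and 0.55 on array 2. With outlier spots kept, IDH2 had a mean of 0.47 and limma adjusted p = 4.14e-08. Both subunits thus read higher in the library labelled deletion. IDH1 rests on 1 dim spot per array, and IDH2 has unflagged spots on array 1 alone. The size of the IDH1 ratio depended on the processing. It ran from 0.44 with no background correction to 0.69 with the scanner software's log ratios, so the sizes of the 2 subunits are not compared.

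**Figure D2:**
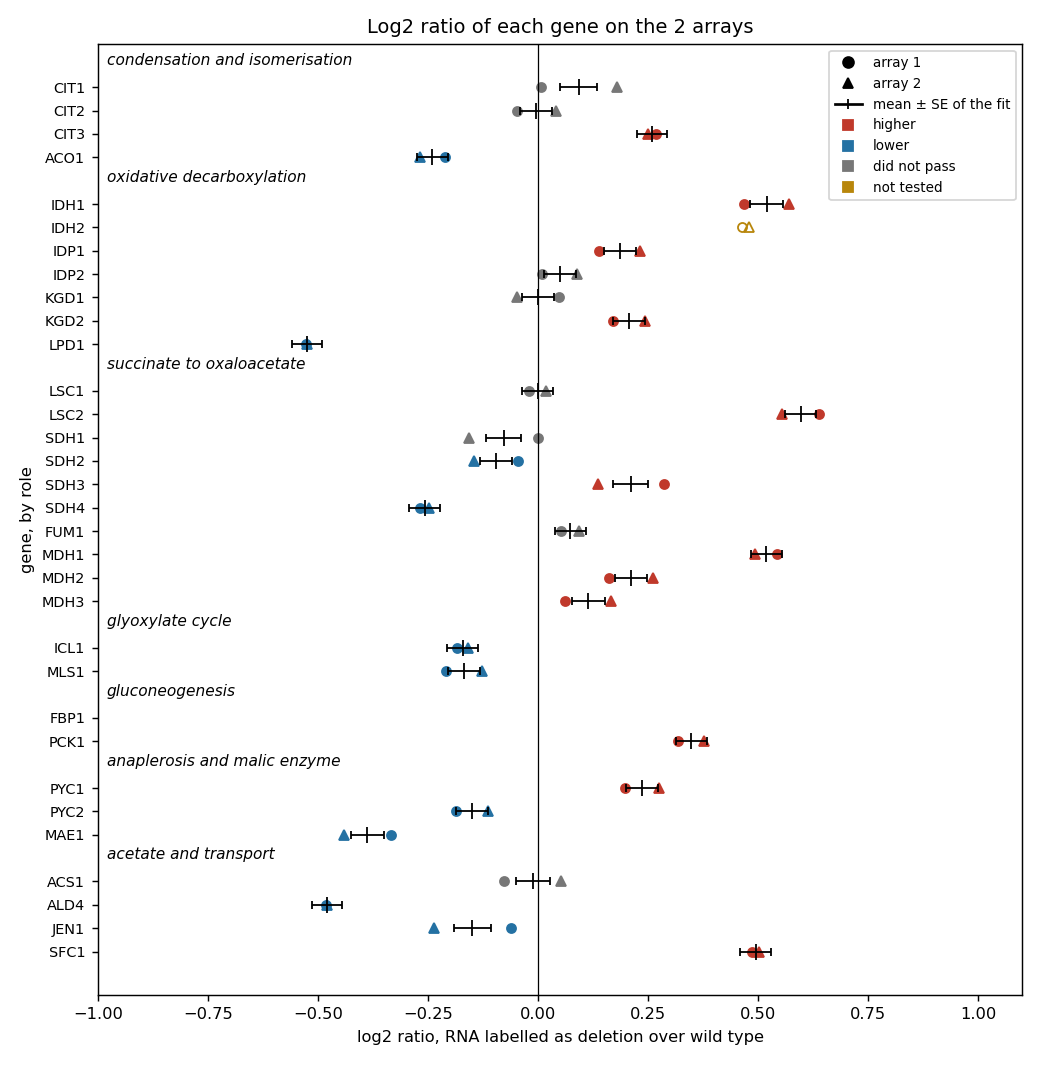
Log2 ratio of the genes (x axis, library labelled deletion over wild type) by role (y axis), with array 1 as a circle, array 2 as a triangle and the mean ± SE of the fit as a black bar. IDH2 was not tested and is drawn hollow from all of its spots, and FBP1, at background, has no points. LSC2, IDH1, MDH1 and SFC1 lie furthest to the right and LPD1, ALD4 and MAE1 furthest to the left, with both arrays on the same side.

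The NADP-dependent isocitrate dehydrogenases supply reducing power instead of feeding the respiratory chain. The mitochondrial IDP1 was higher by 0.18 ± 0.04 (SE, n = 2; limma adjusted p = 0.000352), with 0.14 on array 1 and 0.23 on array 2. The cytosolic IDP2 had 0.01 and 0.09 and did not pass (mean 0.05 ± 0.04). The difference between these isoenzymes was 0.13 on array 1 and 0.14 on array 2; differences between genes were not tested here or below.

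The 3 members that encode subunits of 2-oxoglutarate dehydrogenase, the enzyme of the next step, did not move together. KGD1, the subunit that decarboxylates 2-oxoglutarate, had 0.05 on array 1 and -0.05 on array 2 and did not pass (mean -0.00 ± 0.04). KGD2, the succinyltransferase subunit, was higher, with 0.17 and 0.24 (mean 0.21 ± 0.04, SE, n = 2; limma adjusted p = 0.000107). LPD1, dihydrolipoamide dehydrogenase, which this complex shares with pyruvate dehydrogenase and the glycine cleavage enzyme, was the lowest of all tested members. Its processed signals fell from 4704 in wild type to 3222 on array 1 and from 5170 to 3576 on array 2. The arrays gave nearly the same ratio, -0.53 on array 1 and -0.52 on array 2, and its 4 spot readings lay between -0.55 and -0.50 (mean -0.53 ± 0.03, 0.695-fold; limma adjusted p = 5.41e-09). The ratio of KGD2 lay above that of LPD1 by 0.70 on array 1 and by 0.77 on array 2.

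Succinyl-CoA ligase is made of an alpha and a beta subunit, and only the beta subunit passed the test. LSC2, the beta subunit, read 1185 (wild type) and 1861 on array 1 and 2496 and 3676 on array 2. Its log2 ratios of 0.64 and 0.55 averaged 0.60 ± 0.04 (1.51-fold; SE, n = 2; limma adjusted p = 2.82e-09), the largest change in either direction among the tested members. LSC1, the alpha subunit, had -0.02 and 0.02 and did not pass (mean -0.00 ± 0.03). The ratio of LSC2 exceeded that of LSC1 by 0.66 on array 1 and by 0.53 on array 2. LSC2 rests on 1 spot per array. It was also the only member with a p under 0.01 in every kept spot on both arrays in the scanner software's own error model. This stricter rule was chosen after seeing the data, and 5.07% of all genes met it. A gene with 1 spot meets it more easily than a gene with more spots.

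Succinate dehydrogenase, which is at once a TCA cycle enzyme and complex II of the respiratory chain, showed small differences of both signs. SDH1, the flavoprotein subunit, had 0.00 on array 1 and -0.16 on array 2 and did not pass (mean -0.08 ± 0.04). SDH2, the iron-sulphur subunit, had -0.05 and -0.15 and passed narrowly as lower (mean -0.10 ± 0.04, SE, n = 2; limma adjusted p = 0.0301). That call was lost with the scanner software's log ratios (-0.07, adjusted p = 0.13) and with the authors' series table (-0.07, adjusted p = 0.166), and the value was -0.05 without array 2.

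The membrane subunits that anchor the enzyme went apart. SDH3 was higher, with 0.28 on array 1 and 0.14 on array 2 (mean 0.21 ± 0.04, SE, n = 2; limma adjusted p = 0.000231); without array 1 the value is the lower of these. SDH4 was lower, with -0.27 and -0.25 (mean -0.26 ± 0.03; limma adjusted p = 8.85e-06), on signals of 4358 (wild type) and 3579 on array 1 and 4655 and 3913 on array 2. The gap between SDH3 and SDH4 was 0.55 on array 1 and 0.38 on array 2. After median centring SDH4 kept its call with a smaller value of -0.13.

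**Figure D3:**
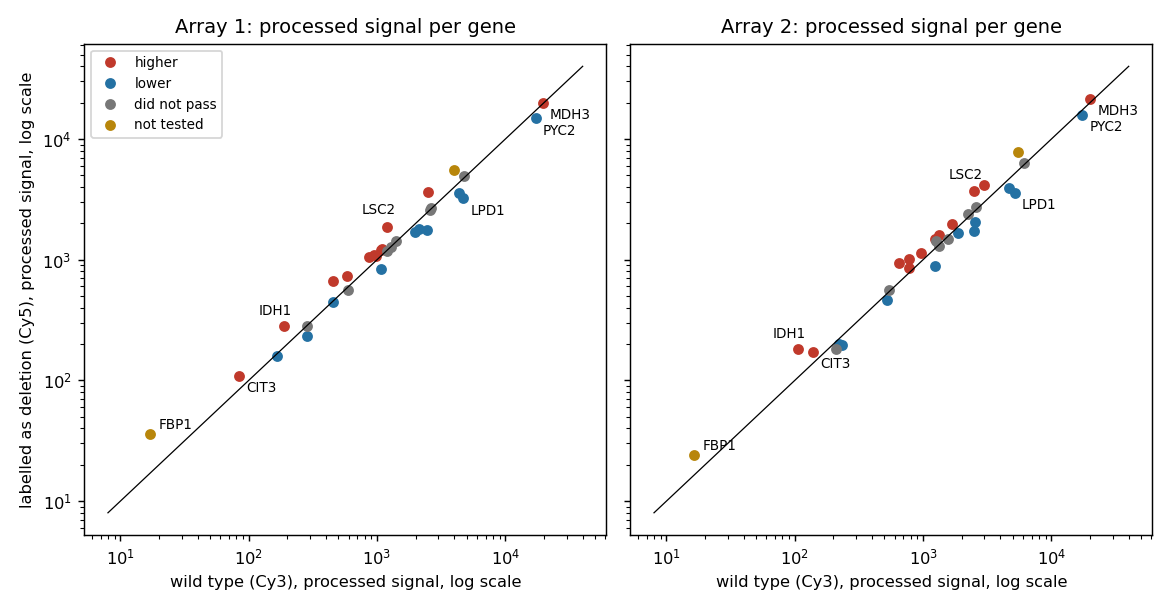
Processed signal of each gene in wild type (x axis, Cy3) and in the library labelled deletion (y axis, Cy5), both on log scales, on array 1 (left) and array 2 (right); points are means over all spots of a gene, flagged ones included, and the line marks equal signals. FBP1 lies at the bottom near background and above the line. CIT3 and IDH1 are dim, MDH3 and PYC2 are brightest, and no gene well above background lies far from the line.

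Fumarase, FUM1, which hydrates fumarate to malate, had 0.05 on array 1 and 0.09 on array 2 and did not pass (mean 0.07 ± 0.03). All 3 malate dehydrogenases, which work in different compartments, were higher. MDH1, the mitochondrial enzyme of the cycle, read 2259 (wild type) and 3308 on array 1 and 2980 and 4194 on array 2. Its log2 ratios, 0.54 and 0.49, averaged 0.52 ± 0.04 (1.43-fold; SE, n = 2; limma adjusted p = 7.55e-09). MDH2, the cytosolic enzyme used in gluconeogenesis, had 0.16 and 0.26 (mean 0.21 ± 0.04; limma adjusted p = 0.000121). MDH3, the peroxisomal enzyme, had 0.06 and 0.17 (mean 0.11 ± 0.04; limma adjusted p = 0.0127), so that its value without array 2 was 0.06. The ratio of MDH1 lay above that of MDH2 by 0.38 and 0.23 on the arrays, and above that of MDH3 by 0.48 and 0.33.

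The size of the MDH3 difference depended on the scaling, and its probe was the brightest of the tested members. It was 0.38 after median centring, and 0.06 with the call lost (adjusted p = 0.193) with the scanner software's log ratios. No spot of MDH3 was saturated.

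Both enzymes that are special to the glyoxylate cycle were slightly lower. ICL1, isocitrate lyase, which splits isocitrate into succinate and glyoxylate, had -0.18 on array 1 and -0.16 on array 2 (mean -0.17 ± 0.03, SE, n = 2; limma adjusted p = 0.000416). Its signals of 1959 (wild type) and 1706 on array 1 and 1883 and 1661 on array 2 were well above background. MLS1, malate synthase, which condenses glyoxylate with acetyl-CoA, had -0.21 and -0.13 (mean -0.17 ± 0.04; limma adjusted p = 0.000691), on lower signals of 284 and 231 on array 1 and 219 and 199 on array 2. The ratios of ICL1 and MLS1 differed by 0.02 on array 1 and by -0.03 on array 2. With CIT2 near 0 and MDH3 higher, the peroxisomal and cytosolic enzymes of this route did not share a direction.

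The 2 enzymes specific to gluconeogenesis could not be compared with each other. FBP1, fructose-1,6-bisphosphatase, a textbook case of glucose repression, failed the scanner software's test for a signal well above background in both channels of both arrays, with mean signals of 17.0 (wild type) and 35.7 on array 1 and 16.4 and 23.9 on array 2. No fold is given for it. PCK1, phosphoenolpyruvate carboxykinase, which makes phosphoenolpyruvate from oxaloacetate, was well above background and higher. Signals of 586 (wild type) and 738 were read on array 1 and of 770 and 1018 on array 2. The log2 ratios, 0.32 and 0.38, averaged 0.35 ± 0.04 (1.27-fold; SE, n = 2; limma adjusted p = 5.15e-07).

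Pyruvate carboxylase refills the cycle with oxaloacetate, and its isoenzymes had opposite signs. PYC1 was higher, with 0.20 on array 1 and 0.27 on array 2 (mean 0.24 ± 0.04, SE, n = 2; limma adjusted p = 3.25e-05). PYC2 was lower, with -0.19 and -0.11 (mean -0.15 ± 0.04; limma adjusted p = 0.00155), but its direction turned after median centring, where it read 0.11 (adjusted p = 0.0153). Its probe was very bright, with wild-type signals of 17162 and 17896 on arrays 1 and 2. The gap between PYC1 and PYC2 was 0.38 and 0.39 on the arrays. The isoenzymes of pyruvate carboxylase, citrate synthase and malate dehydrogenase are related in sequence, and how far each probe also binds the RNA of its relatives was not examined.

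MAE1, the mitochondrial malic enzyme that turns malate into pyruvate, was lower. Its signals were 1077 (wild type) and 837 on array 1 and 1235 and 889 on array 2, with log2 ratios of -0.33 and -0.44 (mean -0.39 ± 0.04, 0.764-fold; SE, n = 2; limma adjusted p = 2.8e-07).

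The genes that bring acetate and organic acids to these pathways also differed in sign. ALD4, the mitochondrial acetaldehyde dehydrogenase that makes acetate, was lower on both arrays by the same amount, -0.48 and -0.48 (mean -0.48 ± 0.03, 0.717-fold; SE, n = 2; limma adjusted p = 1.33e-08). Array 1 read 2470 in wild type and 1748 in red, and array 2 read 2043 and 1432. ACS1, the acetyl-CoA synthetase used on poor carbon sources, had -0.08 and 0.05 and did not pass (mean -0.01 ± 0.04). SFC1, the mitochondrial carrier that exchanges succinate for fumarate and so links the glyoxylate cycle to the TCA cycle, was higher, with 0.49 and 0.50 (mean 0.49 ± 0.03, 1.41-fold; limma adjusted p = 1.01e-08). Its 4 spot readings lay between 0.48 and 0.52, and its signals rose from 455 to 667 on array 1 and from 646 to 932 on array 2.

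JEN1, the permease for lactate and pyruvate, was called lower (mean -0.15 ± 0.04, SE, n = 2; limma adjusted p = 0.00471), but the arrays differed more in it than in any other tested member, with -0.06 on array 1 and -0.24 on array 2. Its signals were low, at 167 (wild type) and 160 on array 1 and 234 and 196 on array 2. The call was lost with the scanner software's log ratios (-0.15, adjusted p = 0.0511).

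The genes around the pathway moved in both directions as well. Of 75 further genes in 6 lists 67 were tested, and the other 8 were left out for outlier spots. Of these 67 genes 27 were higher and 25 lower, 77.6% together, again close to the 73.1% of all genes. All 8 genes left out had a lower processed signal in red than in green on both arrays. With outlier spots kept, 26 of the 75 genes were higher and 33 lower, where 74.0% of all genes passed. Pyruvate dehydrogenase then had 1 gene higher and 4 lower of 8, the carriers 2 and 6 of 9, and the regulators 9 and 13 of 25. The lists were drawn up with earlier results of these data known, and they received no test of their own.

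Pyruvate dehydrogenase, which makes the acetyl-CoA that enters the cycle, had 2 of 6 tested genes higher and 2 lower. PDA1, the alpha subunit of its first enzyme, was lower, with -0.69 on array 1 and -0.62 on array 2 (mean -0.66 ± 0.04, SE, n = 2; limma adjusted p = 1.13e-09), while PDB1, the beta subunit of the same enzyme, was higher with 0.25 ± 0.03 (limma adjusted p = 1.37e-05). PDA1 kept its call after median centring with -0.40, more than 1.5 times smaller. PKP2, a kinase that acts on the complex, had -0.13 ± 0.04. PDA1 and LPD1, which is the third enzyme of this complex too, were thus both lower, while PDB1 and LAT1, the second enzyme, were higher. LAT1 had only 0.09 ± 0.04 (limma adjusted p = 0.0386), and its call was kept under 5 of 9 other settings.

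Of 7 tested mitochondrial carriers 2 were higher and 4 lower. CTP1, the citrate carrier, had 0.41 ± 0.03 and ODC2, which carries 2-oxoglutarate and related acids, had 0.46 ± 0.04. MPC3, a subunit of the pyruvate carrier, had -0.61 ± 0.03 (SE, n = 2; limma adjusted p = 1.56e-09).

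Among 12 isoenzymes and assembly factors 2 were higher and 6 lower. FRD1, a soluble fumarate reductase, had -0.63 on array 1 and -0.53 on array 2 (mean -0.58 ± 0.04, SE, n = 2; limma adjusted p = 3.94e-09), and SHH4, a relative of SDH4, had -0.30 ± 0.04.

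Of 13 genes for the use of acetate, ethanol and lactate 6 were higher and 3 lower. The cytosolic acetaldehyde dehydrogenase ALD6 was lower, like the mitochondrial ALD4, with -0.62 ± 0.03 (SE, n = 2; limma adjusted p = 1.28e-09), and read -0.38 after median centring with its call kept. ALD5, another mitochondrial acetaldehyde dehydrogenase, was higher with 0.35 ± 0.03 (limma adjusted p = 4.89e-07). YAT2, which moves acetyl groups onto carnitine, had -0.31 ± 0.04. The 3 acetaldehyde dehydrogenases thus did not share a sign.

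Of 21 tested regulators 9 were higher and 9 lower. HAP4, the activating subunit that limits the Hap2/3/4/5 complex, was the highest, with 0.53 on array 1 and 0.54 on array 2 (mean 0.53 ± 0.03, 1.45-fold; SE, n = 2; limma adjusted p = 4.65e-09). RTG1, of the retrograde pathway from mitochondrion to nucleus, had 0.37 ± 0.04, and UCC1, the F-box protein that marks Cit2 for degradation, had 0.39 ± 0.03. Of the partners of HAP4, HAP2 (0.16) and HAP5 (0.31) were called higher and HAP3 (-0.22) lower. Of the other Rtg factors, RTG2 was called lower (-0.21), a call lost after median centring, and RTG3 was not tested. CAT8 and SIP4, the activators of gluconeogenic genes, did not pass, with -0.04 and 0.02. HAP2, HAP3, HAP5, RTG2, RTG3, CAT8 and SIP4 were picked out for mention with their results known.

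The Gid ubiquitin ligase removes gluconeogenic enzymes, among them those of FBP1, PCK1, ICL1 and MDH2, when glucose returns. Of its 8 listed genes 6 were higher and 1 lower, with a median log2 ratio of 0.24, and the counts were the same under all 9 other settings with a test. FYV10, a subunit of its catalytic core, had 0.49 ± 0.03 (SE, n = 2; limma adjusted p = 1.07e-08), GID8, a scaffold subunit, had 0.38 ± 0.04 and VID24, the subunit that recognises substrates, had 0.29 ± 0.04. Among all genes 36.4% were called higher. Nothing particular to this list is claimed, since it was drawn up with earlier results known and was not tested as a set.

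**Figure D4:**
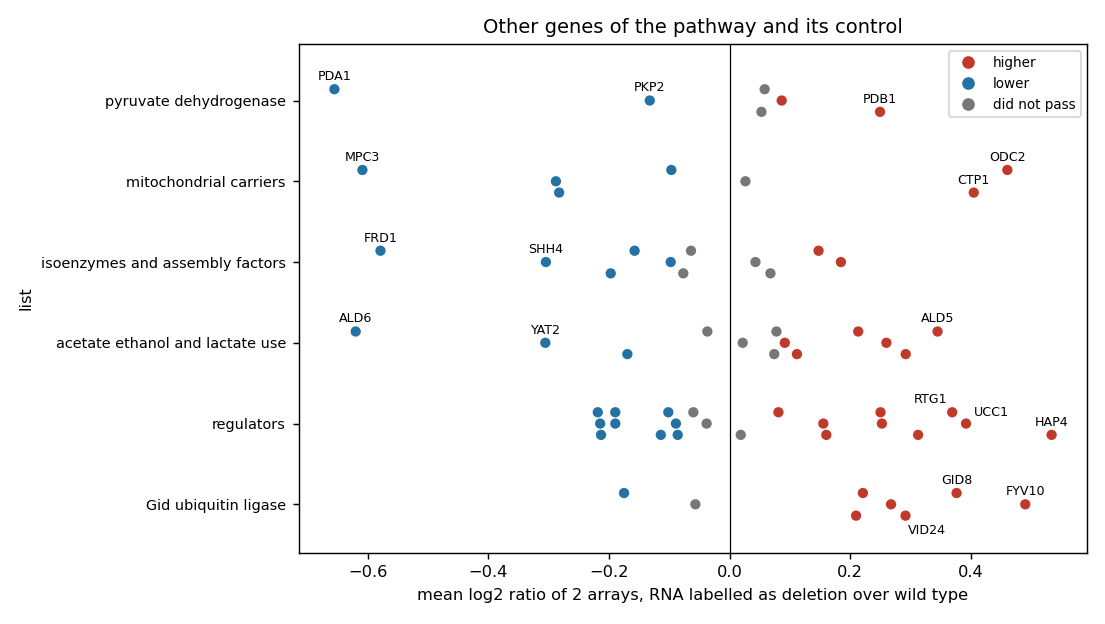
Mean log2 ratio (x axis, library labelled deletion over wild type) of 66 of the 67 tested genes of 6 further lists (y axis). Each point is a gene, coloured by its call, and up to 3 called genes per list with the largest absolute ratio are written out. Every list holds genes on both sides of 0, and of the genes drawn PDA1 is lowest at -0.66 and HAP4 highest at 0.53.

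The calls of most members held under other ways of processing the arrays. Of the 22 called members 18 kept direction and call under all 9 settings with a test, and SDH2, MDH3, JEN1 and PYC2 did not. Median centring in place of loess moved the ratios of the 5 tested members with the brightest probes, MDH3, PYC2, CIT2, SDH4 and LPD1, up by 0.13 to 0.26 on the log2 scale. The other 25 moved by between -0.06 and 0.08. LSC2, IDH1, MDH1, SFC1, LPD1, ALD4 and MAE1, the members with the largest changes, kept their calls throughout, with LPD1 at -0.40 after median centring.

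**Figure D5:**
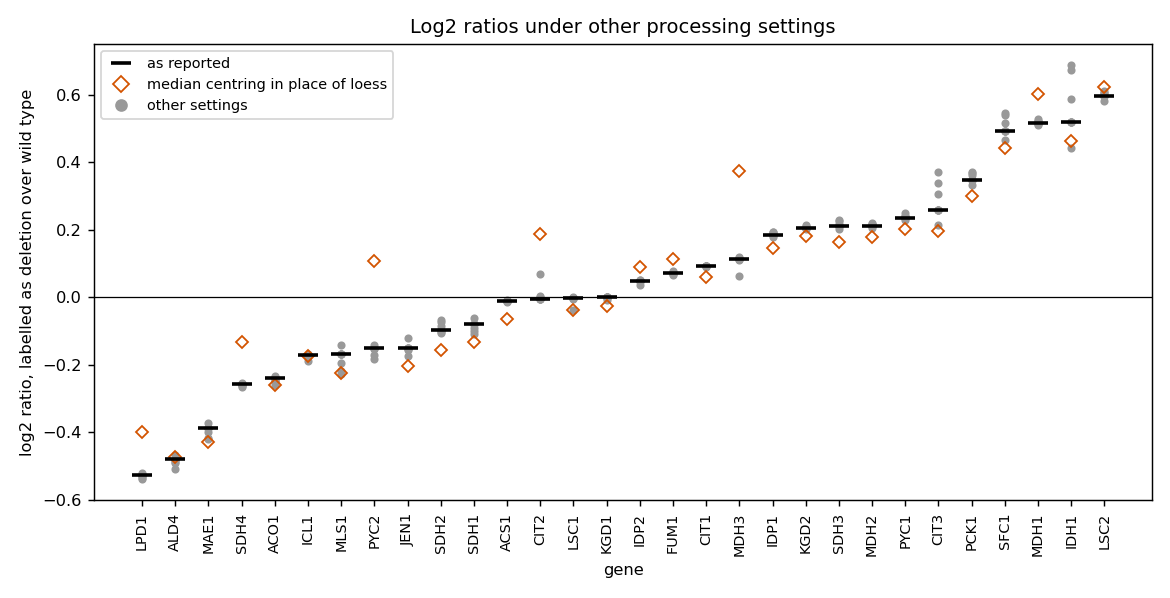
Log2 ratio (y axis, library labelled deletion over wild type) of each of the 30 tested members (x axis, ordered by its value as reported) under 10 settings. Black bars are the values as reported, diamonds those after median centring and grey points those of the other settings. PYC2 and CIT2 are at or below 0 as reported and at 0.11 and 0.19 after median centring, while the genes at either end stay on their side.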

How the data were processed

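The deposited scanner files hold the intensity of each spot in 2 channels, written by Agilent Feature Extraction 9.5.3.1 per the file headers, whereas version 9.3.2.1 is given by the submitters' processing notes. They also hold a deposited log10 ratio of red over green after LOWESS dye normalisation and the scanner software's p-value for it, per the file headers. The authors' series table gives log2 values whose averaging and normalisation are not given in the sources used here; it was used as an alternative. Here mean signals were corrected with normexp (offset 50) and loess within arrays in limma 3.58.1 under R 4.3.3. Outlier spots were dropped, spots of a probe were averaged, and genes whose spots rose well above background in 1 channel or both, on array 1 and again on array 2, were tested, 5641 of 6256. The ratio was tested against 0 over 2 arrays (prior df 13.2). Gene names came from NCBI RefSeq R64, where all 32 members matched.

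Members and lists were chosen with earlier results of these data known. The genes named are all members and, per further list, up to 3 called genes with the largest absolute ratio and 1 sign on both arrays; 1 such gene is not reported here and is left out of the plot of the lists. LAT1, HAP2, HAP3, HAP5, RTG2, RTG3, CAT8 and SIP4 are named outside this rule, as are the check genes. Processed signals are the scanner software's, averaged over the spots kept (over all spots for IDH2 and FBP1). The number of arrays limits the precision. No promoter sequence was used here. Alternatives were other background corrections, median centring, the deposited ratios, other spot filters and leaving out an array.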

Additional observations from a re-analysis of the deposited data

How the results depend on the processing

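Each array holds both strains, so the pairing is already in each ratio that was tested against 0, and no separate paired analysis was run. Under 9 settings with a test the members' counts stayed between 11 and 16 higher and between 8 and 10 lower. Called members with an absolute log2 ratio of at least 0.5 numbered 4 as reported, 2 after median centring, 3 with no background correction, 5 without an offset or with the series table, and 6 with the scanner software's log ratios. After median centring the direction of PYC2 turned (0.11), and CIT2, whose arrays differed in sign, read 0.19 and passed; the cause was not tested. Under the rule added after seeing the data, a scanner p under 0.01 in every kept spot on both arrays, 1 member was higher and 0 were lower, while 286 of all genes passed; limma called 12 and 10, and 13 and 10 at an unadjusted p of 0.05. Without array 1 or array 2 there is no test, and 3 to 4 members reached 0.5. Of the 8 members that did not pass, 3 stayed so under all 9 settings. Besides CIT2, SDH1 (-0.13), FUM1 (0.11) and IDP2 (0.09) passed after median centring. CIT1 (0.09) passed when both channels had to be well above background, and also with saturated spots left out. Over the further lists together 24 to 27 genes were higher and 23 to 33 lower; the 33, against 25 as reported, came with outlier spots kept, where 75 genes were tested. Signal limits the reading of FBP1, which lay at background. It also limits that of CIT3, IDH1, JEN1, MLS1 and the uncalled SDH1, whose signals overlap in part the range of the URA3 probe.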
